A study of Rattus norvegicus with 32 samples.

Results

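Roux-en-Y gastric bypass without medication (RYGB) was compared with sham surgery (SHAM) in the renal cortex of the Zucker Diabetic Sprague Dawley (ZDSD) rat. The comparison comprised every RYGB library and every SHAM library whose total count was at least 1000000, which gave 9 RYGB and 7 SHAM rats, 16 of the 31 libraries analysed in the series. The 2 SHAM libraries left out, from rats 343 and 348, held 121511 and 101534 counts, against 14502127 to 23995113 in the 7 SHAM rats kept and 16399376 to 22184488 in the 9 RYGB rats. RNA was total RNA depleted of ribosomal RNA and sequenced as stranded read pairs, and each value deposited is a raw count of read pairs on an Ensembl gene of the rat genome build rn5.

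All 16 rats were male, of the ZDSD strain, and 37 weeks old by the labels. All had insulin before the operation to lower plasma glucose and a prophylactic antibiotic, enrofloxacin, before surgery. SHAM rats had a midline laparotomy that was closed again. RYGB rats had the stomach divided into a small pouch joined to the jejunum, and passed through a staged liquid and semi-solid diet afterwards. The methods place sham surgery at a younger age than bypass with the same interval to tissue collection. This differs from the single age in the labels. Operation, diet, age at surgery and, by the methods, age at tissue collection therefore cannot be told apart in this contrast. The remaining libraries, 6 from unoperated Sprague Dawley (SD) control rats and 7 from ZDSD rats that had the bypass and then chow containing ramipril, rosuvastatin, metformin and fenofibrate (RYGB-FMRR), were fitted in the same model and their levels are given beside those of RYGB and SHAM. SD rats differ from the ZDSD rats in strain as well as in disease.

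Gastric bypass routes food past most of the stomach and the proximal small intestine, lowers body weight and improves glycaemia, often before much weight has been lost. The renal cortex consists mainly of proximal tubule, which reabsorbs filtered glucose, sodium and amino acids and relies on fatty acid oxidation for energy, with glomeruli, distal nephron, vessels and interstitial cells making up the rest. In diabetic kidney disease the glomerular filter leaks albumin, tubular cells are injured, and matrix accumulates in the interstitium. The tissue was sequenced in bulk, so a lower transcript level can come from fewer cells of a type or from less RNA per cell, and these cannot be told apart here. The deposited counts are keyed by Ensembl identifier and do not pair identifiers with gene names, so genes are described by identifier, position, structure and level, and the markers of tubule, glomerulus and other cell types could not be checked.

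Lower transcript levels were more frequent than higher ones after RYGB. Of 14776 genes tested, 790 were differentially expressed (5.35%), with 571 lower (3.86%) and 219 higher (1.48%) in RYGB. Differential expression was an absolute fold change of at least 1.3 with a Benjamini-Hochberg adjusted p-value under 0.05 in edgeR's quasi-likelihood test. Lower genes thus made up 72.3% of the calls. The median log2 fold change over all genes tested was -0.0010, close to 0. With the adjusted p-value alone and no minimum fold change the split was closer to even, at 1059 lower (7.17%) and 844 higher (5.71%), in all 12.9% of genes tested.

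Most changes were modest in size, and the lower genes moved further than the higher genes. The lower genes had a median log2 fold change of -0.67 with quartiles of -1.03 and -0.49. The higher genes had a median of 0.56 with quartiles of 0.45 and 0.85. A fold change of at least 2 was reached by 151 lower and 43 higher genes, and one of at least 4 by 27 lower and 9 higher genes. Only 4 genes in each direction exceeded 8-fold. These are values of genes chosen by this contrast and are given as a description. The lower genes were also more weakly expressed, as given below, and whether this bears on their larger changes was not tested.

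**Figure D1:**
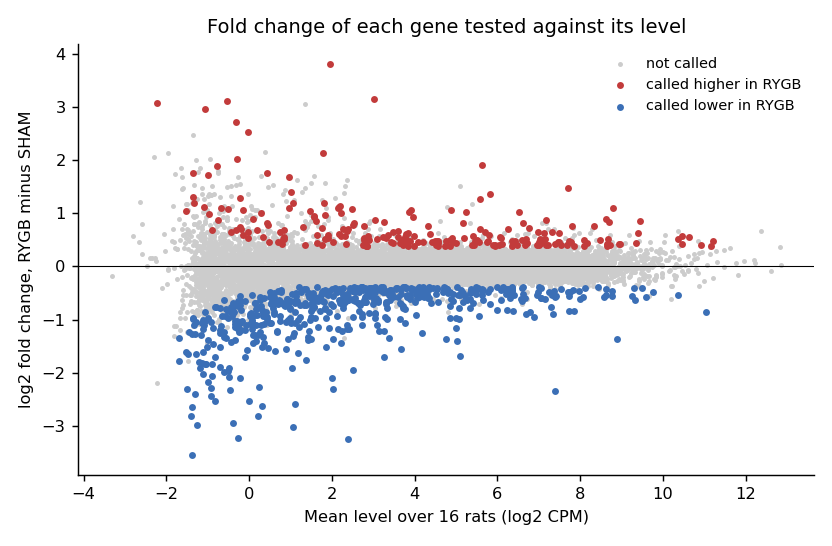
Each point is 1 of 14776 genes tested; the x axis is the mean level over the 16 RYGB and SHAM rats in log2 CPM with a prior count of 2, and the y axis is the log2 fold change of RYGB minus SHAM. The 571 genes called lower (blue) outnumber the 219 called higher (red), and the largest falls lie on the left of the plot, at low levels.

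Lower calls were concentrated among weakly expressed genes, whereas higher calls were not. Levels were compared between genes as log2 CPM per kilobase of exon. The median level was 1.41 for the lower genes, 3.40 for the higher genes and 3.52 for all genes tested. When all genes were split at the quartiles of this level, 8.55% of the genes in the least expressed bin were called lower, against 3.47%, 1.68% and 1.76% in the successive bins above it. The share called higher was 1.76% in the least expressed bin, 1.3% and 1% in the middle bins and 1.87% in the most expressed bin. The level also sets how precisely a fold change is estimated. Median exon length was 2074 bases in the lower genes, 1988 in the higher genes and 1998.5 in all genes tested, and the median number of separate exon blocks was 8, 7 and 8. The share of genes called was higher at the short end of the length range. Of genes under 500 bases 5.81% were called lower and 2.9% higher, against 3.53% and 1.13% of genes from 1000 to 2000 bases. Of the 40 genes under 500 bases that were called lower, 20 were the short intronless genes on chromosome 17 described below. Of the 210 genes of 8000 bases or more, 5.71% were called lower and 0.952% higher. Genes with a single exon block were called lower at 5.03% and higher at 1.99%, and genes with more blocks at 3.55% to 3.95% and 1.18% to 2.19%. Outside the short intronless genes of 4 lengths described below, 23 of 819 single-block genes were lower and 17 higher. That group held 20 of the 43 single-block genes called lower. Its lengths were taken from genes called lower, so a smaller share without it was favoured by the choice. Across bins of exon length the median log2 fold change of all genes stayed between -0.02 and 0.05.

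For each direction the pair of genes with the smallest adjusted p-values is given in full. ENSRNOG00000002381, on the minus strand of chromosome 14 (12306370 to 12331030, 3 exon blocks, 2158 bases of exon), had the smallest adjusted p-value of all. Its level, in log2 CPM (counts scaled to library size), was in SHAM 3.67 at the lowest, 4.15 at the median and 4.77 at the highest rat, and in RYGB it was 2.09, 2.42 and 2.81. Every RYGB rat thus lay below every SHAM rat, and the log2 fold change was -1.70 ± 0.14 (SE), a 3.24-fold reduction (adjusted p = 1.69e-08, edgeR). The SD rats lay between 2.59 and 3.62, overlapping RYGB and lying below all 7 SHAM rats. The RYGB-FMRR rats ranged from 1.70 to 2.21, and RYGB-FMRR minus RYGB was -0.57 ± 0.15 (adjusted p = 0.013, edgeR).

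ENSRNOG00000013062, on the minus strand of chromosome 3 (174200350 to 174214785, 12 exon blocks, 3211 bases of exon), was the more abundant of the lower pair and fell further. In SHAM its lowest, median and highest levels were 8.09, 8.71 and 9.22 log2 CPM, and in RYGB they were 5.88, 6.52 and 6.82. The groups were separated by more than 1 log2 unit, and the log2 fold change was -2.35 ± 0.25 (SE), a 5.09-fold reduction (adjusted p = 8.20e-07, edgeR). The SD rats ranged from 7.75 to 8.70 and overlapped SHAM, not RYGB. Every RYGB rat thus lay below every SD rat as well. The RYGB-FMRR rats ranged from 4.86 to 6.95, the widest spread of the 4 groups, and their difference from RYGB was -0.34 ± 0.25 (adjusted p = 0.40).

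ENSRNOG00000001766, on the minus strand of chromosome 11 (74479841 to 74502561, 19 exon blocks, 4787 bases of exon), had the smallest adjusted p-value among the higher genes. Its lowest, median and highest levels were 6.47, 6.93 and 7.196 log2 CPM in SHAM and 7.89, 8.38 and 9.04 in RYGB. No RYGB rat overlapped SHAM, and the log2 fold change was 1.48 ± 0.14 (SE), a 2.78-fold increase (adjusted p = 1.02e-07, edgeR). The SD rats, at 7.02 to 7.65, overlapped the upper SHAM rats and lay below every RYGB rat. RYGB-FMRR rats ranged from 7.82 to 8.58, with a difference from RYGB of -0.13 ± 0.13 (adjusted p = 0.54).

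ENSRNOG00000050012, on the plus strand of chromosome 8 (13809372 to 13809436), is a single-exon gene of only 65 bases. It overlaps 1 other annotated gene on the same strand, and read pairs from the 2 may not be told apart. Its levels in SHAM were 4.10, 4.24 and 4.50 log2 CPM at the lowest, median and highest rat, and in RYGB 4.78, 5.14 and 5.77. The groups did not overlap, and the log2 fold change was 1.07 ± 0.13 (SE), a 2.10-fold increase (adjusted p = 6.62e-06, edgeR). The SD rats ranged from 3.599 to 4.36, overlapping SHAM and not RYGB. RYGB-FMRR rats, at 4.72 to 5.15, were lower than RYGB by a log2 difference of -0.43 ± 0.13 (adjusted p = 0.027, edgeR). That call was lost without RYGB rat 330, 337 or 346, where the log2 difference was between -0.38 and -0.37.

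**Figure D2:**
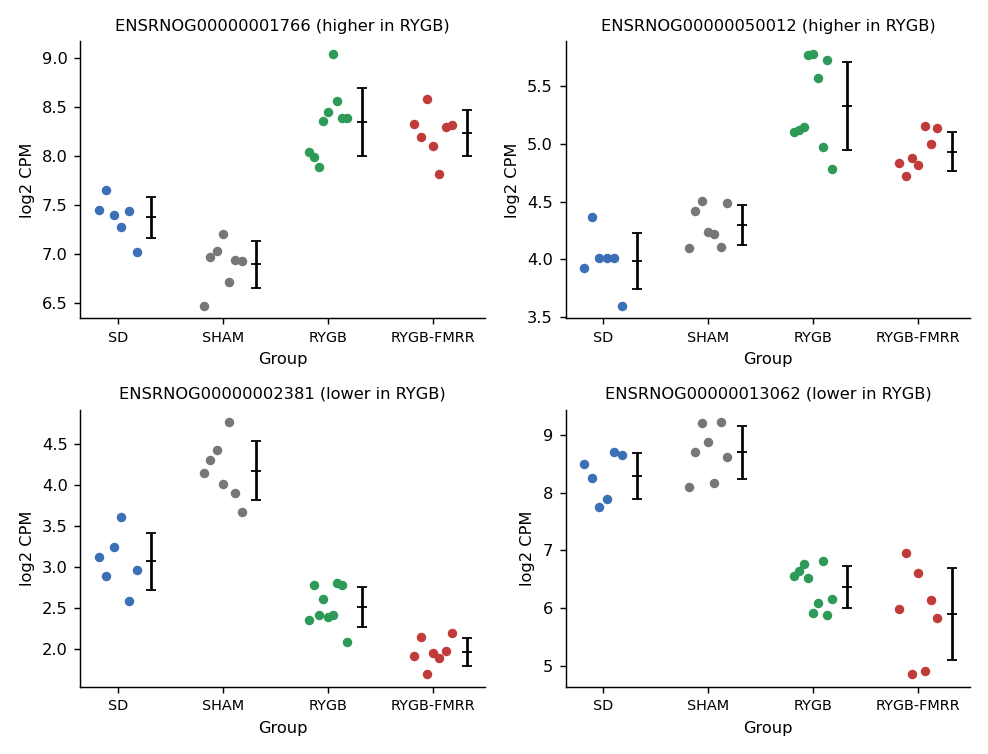
Levels in log2 CPM (y axis) of the 4 genes in each rat of the SD, SHAM, RYGB and RYGB-FMRR groups (x axis); each point is a rat and the black bar with whiskers is the mean ± SD. In all 4 panels the 9 RYGB rats lie apart from the 7 SHAM rats, and the SD rats lie with SHAM for ENSRNOG00000013062 but nearer to RYGB for ENSRNOG00000002381.

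Complete separation of the groups was uncommon. For 187 of the 14776 genes tested (1.27%) the 9 RYGB and 7 SHAM rats did not overlap in log2 CPM, 116 of them lower (0.785%) and 71 higher (0.481%) in RYGB. This count rose to 414 without SHAM rat 333 and to 447 without SHAM rat 340. Of the 790 differentially expressed genes 101 were separated in this way, 72 lower and 29 higher. For the other 689 genes that were called, the ranges of the RYGB and SHAM rats overlapped.

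The genes past 8-fold, singled out here after their values were seen, showed how far 1 rat could carry a fold change. A gene on chromosome 10 (31644784 to 31668180) had a log2 fold change of -3.25 ± 0.66 (SE, adjusted p = 0.0018, edgeR), with SHAM rats from 2.03 to 115 CPM around a median of 8.37 and RYGB rats from 1.68 to 6.61. SHAM rat 311 held 54.0% of the summed SHAM level of that gene, and the groups overlapped. A gene on chromosome 15 (49092280 to 49103281) had the largest fall, at -3.55 ± 0.43 (adjusted p = 4.44e-06, edgeR). Its SHAM rats ranged from 0.296 to 1.94 CPM and its RYGB rats from 0 to 0.162 without overlap, at levels where few read pairs were counted. Rat 311 was the highest SHAM rat for all 4 of the genes lowered by more than 8-fold, with 25.3% to 54.0% of the summed SHAM level.

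Among the 4 genes raised by more than 8-fold, the rise was spread over more rats for the gene on chromosome 8 (62249046 to 62255076). SHAM rats ranged from 0 to 5.85 CPM with a median of 0.838, and RYGB rats from 4.48 to 29.2 with a median of 19.0. Its log2 fold change was 3.82 ± 0.54 (adjusted p = 3.88e-05, edgeR), and the RYGB-FMRR median of 19.4 CPM was close to that of RYGB while the SD median was 2.35. A gene on chromosome 7 (70512763 to 70517707) did not overlap between groups, at 0.828 to 6.82 CPM in SHAM and 7.76 to 61.1 in RYGB, with medians of 0.689 in SD and 16.5 in RYGB-FMRR. Its log2 fold change was 3.15 ± 0.47 (adjusted p = 6.91e-05, edgeR). For the gene on chromosome 2 (262193376 to 262224625), RYGB rat 338 held 44.2% of the summed RYGB level.

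A group of short intronless genes on chromosome 17 fell together. Neighbouring tested genes were called in the same direction in runs of 3 or more at 7 places. These runs held 32 genes, and all of them were lower in RYGB and none higher. Lower calls were more frequent than higher calls over all genes (3.86% against 1.48%), which favours runs of lower genes. The 3 runs on chromosome 17, at 45468539 to 45488470 (7 genes), 58650533 to 58719211 (10 genes) and 58942757 to 58950021 (3 genes), consisted mostly of genes with a single exon block, 17 of 20. The remaining runs, of 3 genes each, lay on chromosomes 1, 2, 10 and 11. The share of tested genes called lower was 8.82% on chromosome 17 (39 of 442), the highest of the 20 autosomes and the X chromosome, against 3.86% over all genes. Without the short intronless genes of 4 lengths taken up below, it was 4.57% on chromosome 17 (19 of 416). That is under the 5.9% on chromosome 19 and the 5.41% on chromosome 9. The 4 lengths were taken from genes called lower, so a smaller share without these genes was favoured by the choice. On chromosome 15, 0 of 394 tested genes were called higher, where 1.48% were over all genes.

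Of the 17 intronless genes in the chromosome 17 runs, 15 repeated a few exact exon lengths, 312, 381, 393 and 411 bases, each shared by at least 2 of them. The other 2, of 645 and 669 bases, shared their length with no other gene in the runs and were not taken further. Every intronless gene of these lengths was then taken from the annotation, whether or not it had been called. As the lengths were chosen after the values were seen, the counts that follow are a description without a test. The annotation lists 69 such genes, 28 of them on chromosome 17, and 36 had enough counts to be tested. On chromosome 17, 20 of 26 tested were lower, 0 were higher and 6 were not called. On the other chromosomes 0 of 10 were called in either direction. Those 10 averaged 3.49 log2 CPM in SHAM, against 1.92 for the 26 on chromosome 17, so the sets are not matched for level. No gene names were paired with these identifiers, so the family these genes belong to was not determined here.

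On chromosome 17 the genes lay in 2 segments, and the fall was seen in both. In the segment from 45279292 to 45677932, 7 of 11 tested were lower, with a median log2 fold change of -0.54. In the segment from 58624879 to 58950698, 13 of 15 were lower, with a median of -1.07. All 26 estimates on chromosome 17 were below 0, from -2.27 to -0.0011, while the 10 on other chromosomes ranged from -0.09 to 0.12 with a median of 0.04. By length, all 8 genes of 411 bases on chromosome 17 were lower, as were 6 of 7 of 393 bases, 4 of 6 of 381 bases and 2 of 5 of 312 bases. Both strands were represented, with 15 of the 26 genes on the plus strand.

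The genes of this group that were called were the weakly expressed ones, with levels given in log2 CPM and not per length. None of the 4 genes on chromosome 17 with a mean of at least 4 log2 CPM was called, and their median log2 fold change was -0.17, whereas 20 of the 22 below that level were lower with a median of -1.07. Of the 4, the gene at 4.57 log2 CPM missed only the fold change threshold, at -0.32 (adjusted p = 0.018, edgeR). Just below the split, a gene at 3.89 log2 CPM was called, at -0.54. Most of the 4 were 312 bases long, so level and length cannot be told apart here. The gene with the largest fall (45470632 to 45471042, 411 bases) lay between 0.64 and 2.42 log2 CPM in the SHAM rats and between -1.96 and -0.12 in the RYGB rats. These groups did not overlap, and the log2 fold change was -2.27 ± 0.28 (SE, adjusted p = 7.18e-06, edgeR). The gene with the highest level (45677621 to 45677932, 312 bases) lay between 6.76 and 6.97 in SHAM and between 6.53 and 7.14 in RYGB, with a log2 fold change of -0.0011 ± 0.078 (adjusted p = 0.995, edgeR). Genes of near-identical sequence can share reads, and a read pair that aligns equally well to several of them may go uncounted. No sequence was compared here, so whether this touches these genes was not tested.

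**Figure D3:**
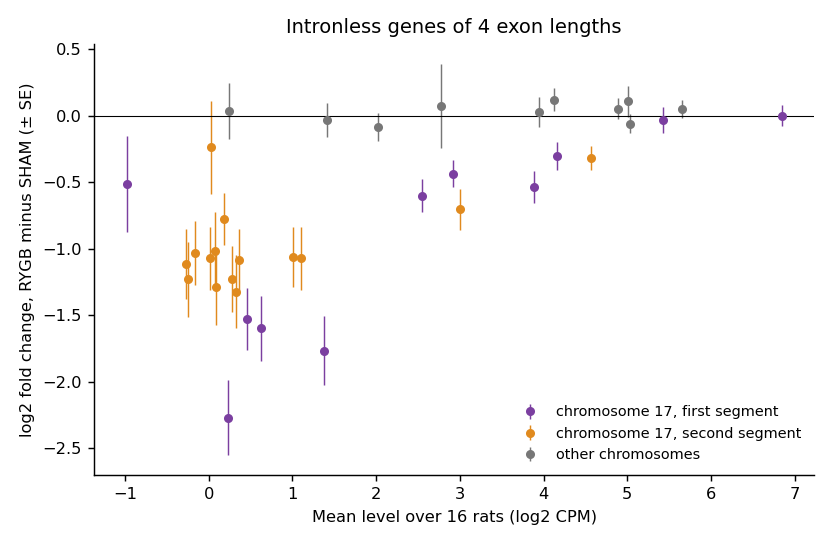
Each point is an intronless gene with an exon length of 312, 381, 393 or 411 bases; the x axis is its mean level over the 16 RYGB and SHAM rats (log2 CPM), the y axis the log2 fold change of RYGB minus SHAM, and whiskers are ± 1 SE. The 26 genes on chromosome 17 (purple and orange) lie at or below 0, and the 4 of them above 4 log2 CPM lie within 0.32 of it. The 10 genes on other chromosomes (grey) lie around 0, mostly at higher levels than the chromosome 17 genes that were called.

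Averaged over the 26 chromosome 17 genes, called or not, the SHAM rats lay between 1.51 and 2.70 log2 CPM with a median of 1.85, and the RYGB rats between 0.91 and 1.42 with a median of 1.10. The lengths that define the group came from genes already called lower, so this separation was favoured by the choice. SHAM rat 311 was the highest of all rats at 2.70. The SD rats lay between 1.08 and 1.57 and the RYGB-FMRR rats between 0.92 and 1.42. The mean of the 10 genes on other chromosomes was 3.35 to 3.67 in SHAM and 3.43 to 3.59 in RYGB, with overlap.

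The spread of the SHAM rats bore on these counts. The mean deviation from the SHAM average over the 571 lower genes was 0.38 log2 units in SHAM rat 311 and -0.46 in SHAM rat 340, with the other 5 SHAM rats between -0.14 and 0.21. The 9 RYGB rats lay between -0.87 and -0.69, a narrower range and below every SHAM rat. The SD rats lay between -0.60 and -0.36, overlapping rat 340, and the RYGB-FMRR rats between -0.91 and -0.63. Over the 219 higher genes, rat 340 was again the SHAM rat nearest to RYGB, at 0.32, with the other SHAM rats between -0.22 and 0.06 and the RYGB rats between 0.63 and 0.84. These genes were chosen by this contrast, so the positions of the RYGB rats relative to SHAM were fixed by the choice and are given as a description, as are those of the SD and RYGB-FMRR rats beside the same SHAM rats.

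**Figure D4:**
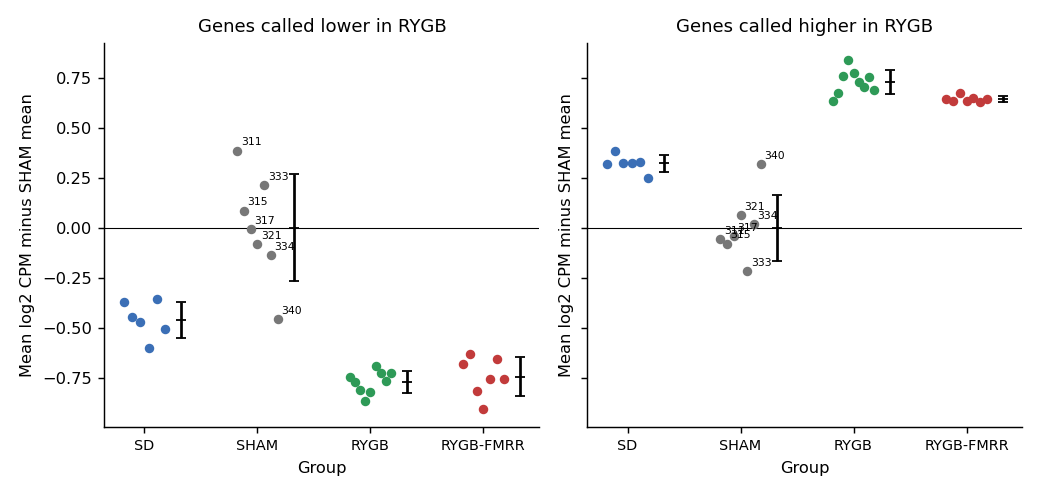
The y axis is each rat's mean log2 CPM minus the SHAM mean, averaged over the 571 genes called lower (left) or the 219 called higher (right), by group (x axis); points are rats, SHAM rats carry their number, and the black bar with whiskers is the mean ± SD. SHAM rat 340 lies nearest to the RYGB rats in both panels, and rat 311 lies farthest from them in the left panel.

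Gene by gene, rat 340 was the lowest of the 7 SHAM rats for 331 of the 571 lower genes (58.0%), compared with 21.7% of all genes tested, and the highest for 98 of the 219 higher genes (44.7%), compared with 21.2% of all genes. Rat 311 was the highest SHAM rat for 236 of the lower genes (41.3%), compared with 13.3% of all genes. For the higher genes the lowest SHAM rat was most often rat 333, in 78 of the 219, and was rat 311 in 30. Over all genes tested rat 333 was most often an extreme of SHAM, being highest for 29.0% and lowest for 29.4%, and had the smallest total count of the 16 libraries.

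Leaving out rat 340 raised the number of differentially expressed genes from 790 to 1138, with 777 lower and 361 higher. Of the original 790 genes 761 remained and 377 were added. Leaving out rat 311 reduced the number to 571, of which 545 were among the original genes. When each of the 16 rats was left out in turn, 417 genes, 303 lower and 114 higher, were called every time, and no called gene changed direction. Without each RYGB rat in turn, between 696 and 827 genes were called.

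**Figure D5:**
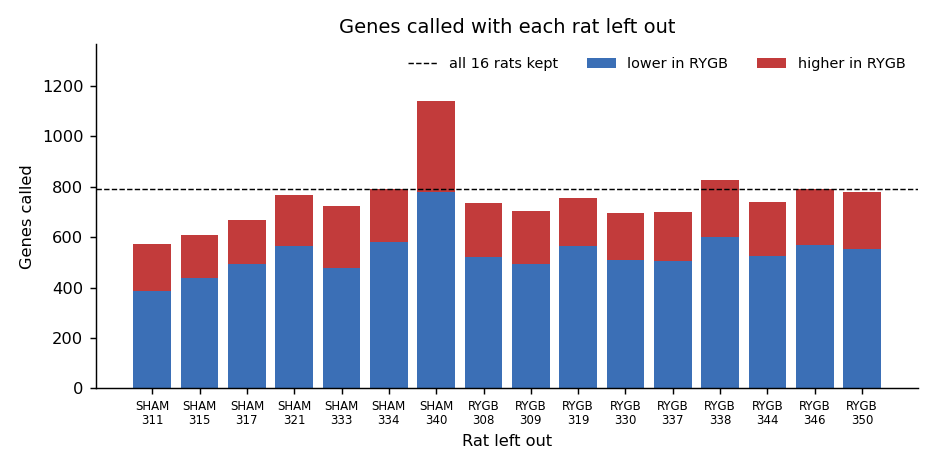
Stacked bars give the number of genes called lower (blue) and higher (red) in RYGB (y axis) when the rat named on the x axis is left out; the dashed line marks the 790 genes called with all 16 rats. The bar without SHAM rat 340 is the tallest at 1138 and the bar without SHAM rat 311 is the shortest at 571.

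In a principal component analysis of log2 CPM in the 16 rats, the leading component carried 34.5% of the variance and the next 13.5%. Along the leading component SHAM lay at -16.0 ± 29.6 (SD, n = 7) and RYGB at 12.5 ± 14.6 (SD, n = 9), and the groups overlapped. Rats 340 (34.0) and 321 (11.2) lay within the RYGB range of -9.47 to 36.2, and rat 333 was the farthest from it at -53.4. The root mean square distance of a rat from its group mean, corrected for group size, was 0.354 ± 0.099 log2 units in SHAM (SD, n = 7) and 0.318 ± 0.051 in RYGB (SD, n = 9). The difference of 0.037 did not pass a two-sided exact permutation test (p = 0.357). That test rearranged the distances of the rats, taken as fixed, between the groups in all 11440 ways. Gene by gene, the standard deviation between rats was larger in SHAM than in RYGB for 63.0% of all genes tested, 62.6% of the higher genes and 75.1% of the lower genes.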

How the data were processed

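Renal cortical libraries were grouped by the submitters' labels. The authors trimmed, aligned to rn5 and counted read pairs with featureCounts 1.6.4 on Ensembl genes, under strand option 2 (reverse strand), and the deposited values are raw counts per gene for 26404 genes, with no normalization or filter. Libraries with a total under 1000000 were left out. A further RYGB-FMRR rat in the labels was not analysed here.

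From the counts, edgeR 4.0.16 under R 4.3.3 was run with TMM normalization, filterByExpr (minimum count 10) and the quasi-likelihood test in a model of all 4 groups without covariates. Each standard error was the size of a log2 fold change over the root of its F statistic. Log2 CPM used a prior count of 2. Exon blocks are merged exons of a gene in the count annotation. In counts simulated for this comparison over 14776 genes, 69 of 100 genes changed by 1.5-fold and 94 of 100 changed by 2-fold were recovered, 7 unchanged genes were called, and 1 gene was called where none was changed. The simulated counts were drawn gene by gene with the same spread in every group. They hold no rat that departs from its group over many genes, so these rates may not carry over to the real counts. Nothing in the labels says more of replicates than that each is a separate rat. Counts of every pair of RYGB or SHAM libraries differed by more than sampling noise (chi-square per degree of freedom of at least 5.35).

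The comparison, gene lists and tests were chosen with earlier results of these data known. The rule for named genes, the 12 smallest adjusted p-values and the 4 largest fold changes per direction among genes with a symbol, the members of pathway and cell type lists and 4 transcripts measured by PCR, needs gene symbols. No table used here pairs the identifiers with symbols, so the rule was limited to 2 identifiers per direction, and the lists were not analysed here. Alternatives were DESeq2 size factors, the DESeq2 1.42.0 Wald test, no filter, all 9 SHAM libraries, a model of RYGB and SHAM only, 2 surrogate variables (sva 3.50.0), adjusted p-value alone, and each rat left out.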

Additional observations from a re-analysis of the deposited data

How the results depend on the processing

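The number of differentially expressed genes, 790, was 785 with DESeq2 size factors, 772 without the filter and 919 with the DESeq2 Wald test. It was 796 with all 9 SHAM libraries, 647 in a model of RYGB and SHAM only and 808 with 2 surrogate variables. The 4 named genes kept their direction and their call between RYGB and SHAM under all 23 alternatives. They were picked for the smallest adjusted p-values in this contrast, so this stability was favoured by the choice. The adjusted p-value alone gave 1903 genes, 844 higher and 1059 lower, so the share that was higher went from 27.7% to 44.4%. Leaving out each rat in turn gave 571 to 1138 genes, 169 to 361 higher and 387 to 777 lower, with the highest of each without SHAM rat 340. Genes whose groups did not overlap numbered 60 with all 9 SHAM libraries, 414 without SHAM rat 333 and 447 without SHAM rat 340, against 187. The difference in spread passed the exact permutation test only with the 2 low libraries kept (0.695, p = 4.11e-05), and p ranged up to 0.740 under the other alternatives. Between 19 and 21 of the 36 intronless genes were lower and 0 higher under every alternative. No paired analysis was possible because a rat had only 1 operation and the labels tie no RYGB rat to a SHAM rat. Depth limits the weakly expressed genes most, and these hold most of the lower calls.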
